A study of Mus musculus with 2 samples.

Results

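The respiratory chain genes of the cell nucleus were followed here as a set. The members are all 96 genes of the count matrix whose symbol begins with Ndufa, Ndufb, Ndufc, Ndufs, Ndufv, Uqcr, Cox4, Cox5, Cox6, Cox7, Cox8, Atp5 or Sdh, out of 26078 genes in the matrix. They comprise 82 subunits, 12 assembly factors (8 for complex I and 4 for complex II) and 2 genes that match by their first letters alone, Atp5s and Cox7a2l. By complex there were 44 genes for complex I, 8 for complex II, 8 for complex III, 20 for complex IV and 16 for complex V. Ndufa4 and its copy Ndufa4l2 were named for complex I and are counted here with complex IV. Cox7b2, Cox8b and Cox8c had no UMI in any barcode, and 93 members had at least 30 UMIs in the kept cells. A UMI, or unique molecular identifier, stands for 1 captured transcript.

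The study measured single-cell RNA of liver macrophages and asked how the uptake of red cells shapes them. Cells came from 2 untreated male mice aged 8 to 10 weeks, 1 homozygous for the sph allele of the spectrin gene (Spta sph/sph) and 1 wild-type littermate (Spta wt/wt). The sph allele is known to give fragile red cells. Livers were digested with collagenase, and non-parenchymal cells were pulled down on magnetic beads that carried an antibody to the macrophage marker F4/80. Each barcode ends in 1 or 2, which splits the cells into library 1 and library 2. No label ties either number to a genotype, so every value below belongs to a numbered library and not to a genotype. With 1 mouse per genotype no test between libraries was possible. Intervals are exact at 95% and cover counting error only.

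The respiratory chain sits in the inner mitochondrial membrane. Complexes I and II feed electrons from NADH and succinate into the chain, complexes III and IV pass them on to oxygen, and complex V, the ATP synthase, uses the proton gradient that results. Mitochondrial DNA, whose genes carry symbols starting with mt-, encodes some membrane subunits of complexes I, III, IV and V, while all other subunits, among them the NADH-binding core of complex I and the whole of complex II, come from the nucleus. Kupffer cells are macrophages that live in the sinusoids of the liver and engulf aged red cells. Red cell precursors depend on mitochondria to make heme and then lose these organelles before they enter the blood.

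Library 2 held 9726 barcodes and library 1 held 8907, of which 6942 and 3488 were kept, with at least 200 genes and at most 20% mt- UMIs. Their median depth was 4596.5 UMIs in library 2 and 2848 in library 1. The libraries shared 955 barcode sequences, and 44 kept cells of library 2 and 815 of library 1 carried a sequence that the other library held with over 5 times as many UMIs. Cells were sorted into lineages by marker genes. The Kupffer gate, which asked for at least 5 of 9 markers such as Clec4f and Cd5l, held 4058 cells of library 2 (median 6150 UMIs) and 2246 of library 1 (median 3668.5 UMIs, 483 of them shallow shared barcodes). Their summed Kupffer markers stood at 244 and 246 UMIs per 10000 non-globin UMIs in library 2 and library 1. Erythroid cells of library 2 were split by globin share. There were 208 early cells (under 25% globin), 421 hemoglobinizing cells (25 to 75%) and 126 globin-dominated cells (over 75%). Early and hemoglobinizing cells had to pass the erythroid marker gate, and cells of 50 to 75% globin that failed it formed a separate class. Globin-dominated cells were taken on globin share whether or not they passed that gate, so the stages were not gated alike. The 39 early erythroid cells of library 1 were all shallow shared barcodes and were not compared.

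Promoter sequences are shown first for the members whose values stand out below. RefSeq promoters of GRCm38.p6, from 250 bases before to 50 bases after the start, were found for 78 of the 96 members. Capitals mark the motifs searched on both strands. Cox6b2 and Cox6b1 encode the same subunit of complex IV and differ in cell type, and Atp5g1 encodes the c subunit of the ATP synthase rotor. Among members with a mean of at least 20 UMIs per 1000000, Cox5b had the widest difference between libraries in Kupffer cells. Ndufaf4 is a complex I assembly factor high in early red cell precursors, and Atp5j2 holds a motif that recurs among the members.
Cox6b2 (chr7:4753045-4753344, minus strand): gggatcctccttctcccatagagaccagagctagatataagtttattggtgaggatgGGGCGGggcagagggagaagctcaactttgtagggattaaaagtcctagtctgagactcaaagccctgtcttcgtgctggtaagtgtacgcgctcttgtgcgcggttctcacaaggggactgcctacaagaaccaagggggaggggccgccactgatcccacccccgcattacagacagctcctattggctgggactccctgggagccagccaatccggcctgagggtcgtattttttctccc
Cox6b1 (chr7:30626065-30626364, minus strand): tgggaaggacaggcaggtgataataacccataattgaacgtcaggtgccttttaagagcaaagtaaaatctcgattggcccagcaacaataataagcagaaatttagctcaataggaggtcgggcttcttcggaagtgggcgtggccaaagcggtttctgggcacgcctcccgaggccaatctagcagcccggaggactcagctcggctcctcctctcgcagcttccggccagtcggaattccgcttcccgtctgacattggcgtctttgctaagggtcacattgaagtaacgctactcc
Atp5g1 (chr11:96075582-96075881, minus strand): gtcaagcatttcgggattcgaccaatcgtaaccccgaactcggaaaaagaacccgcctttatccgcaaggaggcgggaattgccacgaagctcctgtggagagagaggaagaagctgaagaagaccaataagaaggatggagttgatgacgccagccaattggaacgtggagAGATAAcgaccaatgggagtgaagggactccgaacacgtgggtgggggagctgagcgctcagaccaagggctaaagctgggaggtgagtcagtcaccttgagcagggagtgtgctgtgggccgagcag
Cox5b (chr1:36691237-36691536, plus strand): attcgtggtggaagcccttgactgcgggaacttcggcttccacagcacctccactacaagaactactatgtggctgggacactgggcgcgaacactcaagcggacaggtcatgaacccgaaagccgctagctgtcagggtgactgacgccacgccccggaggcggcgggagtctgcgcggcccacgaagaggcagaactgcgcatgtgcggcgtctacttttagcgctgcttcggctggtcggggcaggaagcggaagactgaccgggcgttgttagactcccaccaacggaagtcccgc
Ndufaf4 (chr4:24897833-24898132, plus strand): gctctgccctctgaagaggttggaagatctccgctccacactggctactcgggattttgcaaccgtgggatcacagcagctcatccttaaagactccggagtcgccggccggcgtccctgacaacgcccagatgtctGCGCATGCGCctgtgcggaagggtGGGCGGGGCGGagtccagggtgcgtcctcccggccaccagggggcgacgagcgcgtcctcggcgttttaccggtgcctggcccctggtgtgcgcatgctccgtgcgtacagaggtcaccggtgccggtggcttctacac
Atp5j2 (chr5:145191492-145191791, minus strand): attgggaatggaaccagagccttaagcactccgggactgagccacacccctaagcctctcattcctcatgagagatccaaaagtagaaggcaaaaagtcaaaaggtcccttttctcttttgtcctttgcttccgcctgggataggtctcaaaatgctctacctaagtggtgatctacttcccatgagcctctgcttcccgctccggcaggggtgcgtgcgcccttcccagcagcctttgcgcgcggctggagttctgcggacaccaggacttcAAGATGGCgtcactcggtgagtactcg

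The NRF1 core GCGCATGCG was in 10 of 78 member promoters (12.8%), against 1.81% of all 27025 promoters of the table. It reads nearly the same on both strands, and in Ndufaf4 the matches on the strands overlap. The YY1 motif AAGATGGC was in 9 member promoters (11.5%), against 2.88% of all. In all 9 it lay on the strand of the gene after the start, as in Atp5j2 from base 24, while 33.3% of all promoters with the motif held it there. The ERR motif AAGGTCA was in 10.3% of member promoters against 4.66% of all, the ETS motif CCGGAAGT in 6.41% against 4.00%, and the SP1 motif GGGCGG in 47.4% against 35.9%. The GATA motif AGATAA, added after the values had been seen, was in 7.69% against 11.4% and occurs in Atp5g1, 78 bases before the start. None of these motifs was in the Cox6b1 or Cox5b window, and Cox6b2 held the SP1 motif alone. The median GC content was 58.5% in member promoters and 52.7% in all, and its part in these shares was not tested.

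The first comparison was between cell types. Levels are given as the share of UMIs outside globin and mt- RNA, since globin fills most of a late red cell's library. Each transcript is tagged once at its 3' end, so UMIs of different genes were compared without scaling to length. Hepatocyte-gated cells of library 2 had the highest share of member UMIs among the classes with at least 50 cells, at 4.46% (61 cells, 4.36 to 4.56). Early erythroid cells followed with 3.48% (3.45 to 3.50), then hemoglobinizing cells with 2.95% (2.92 to 2.98) and globin-dominated cells with 2.32% (2.23 to 2.41). Globin-rich cells with few erythroid markers (397 cells) had 2.15%.

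Among the other lineages, monocyte-gated cells had 2.24% in library 2 (90 cells) and 2.01% in library 1 (100 cells). Endothelial cells had 1.77% in library 2 (123 cells) and 1.58% in library 1 (254 cells). In library 2, conventional dendritic cells had 2.04% (56 cells), B cells 1.97% (72 cells) and stellate cells or fibroblasts 1.44% (77 cells). Kupffer cells had 2.20% in library 2 (2.199 to 2.210) and 1.58% in library 1 (1.57 to 1.59). Monocyte and Kupffer cells of library 2 thus had overlapping intervals, as had endothelial and Kupffer cells of library 1.

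**Figure D1:**
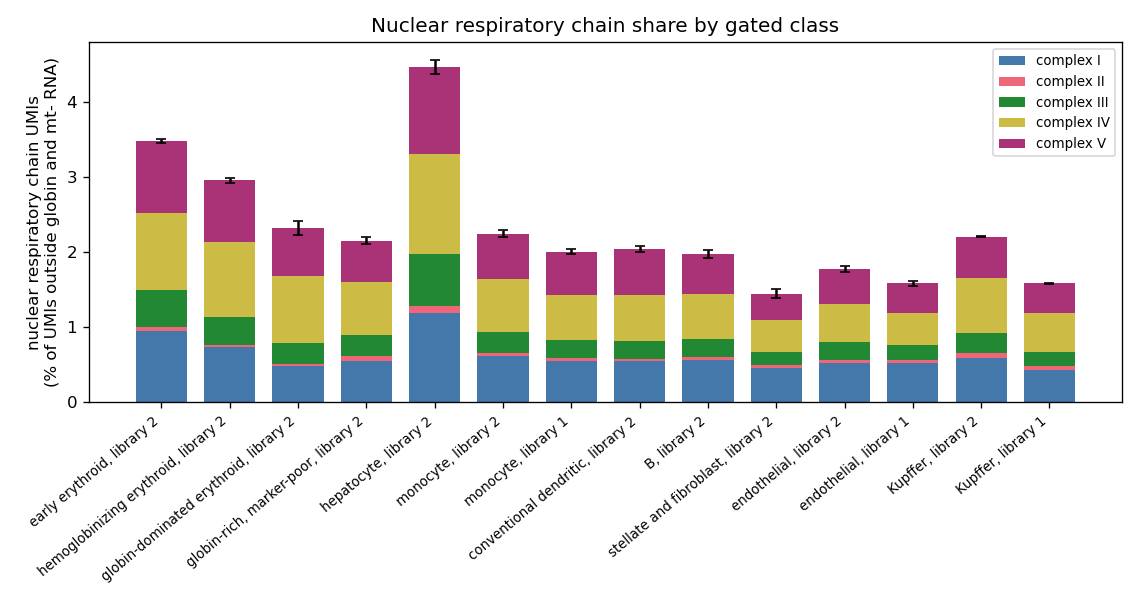
Share of nuclear respiratory chain UMIs among UMIs outside globin and mt- RNA (y axis, %) in each gated class and library (x axis), stacked by complex. Black bars are exact 95% intervals of the total. Hepatocytes stand highest at 4.46%, early erythroid cells at 3.48%, and Kupffer cells of library 1 at 1.58%.

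The balance between nuclear and mitochondrial transcripts differed more between lineages than the nuclear share did. Early erythroid cells had 40.3 member UMIs per 100 mt- UMIs, hemoglobinizing cells 20.6 and globin-dominated cells 5.09. Hepatocytes had 24.7 in library 2, where monocytes had 27.6 and endothelial cells 12.2. Kupffer cells had 15.9 in library 2 (15.90 to 15.99) and 10.3 in library 1 (10.27 to 10.39). The limit of 20% mt- UMIs per cell acts on this ratio. With no limit, early erythroid cells of library 2 had 30.2, monocytes 22.6, hemoglobinizing cells 16.1 and globin-dominated cells 5.09. Kupffer cells of library 2 then had 12.2, hepatocytes 9.77 and endothelial cells 7.94. Hepatocytes thus lay above Kupffer cells with the limit and below them without it. The effect on the Kupffer ratio between libraries is given below.

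Within Kupffer cells, members were higher in library 2 than in library 1 as a set. Their UMIs summed to 18341 per 1000000 UMIs of the class (CPM) in library 2 and 13690 CPM in library 1, a 1.34-fold difference (log2 ratio 0.42, 0.413 to 0.430). Of the 78 members with a mean of at least 20 CPM and at least 30 UMIs, 71 had a higher level in library 2, with a median log2 ratio of 0.42. Of all 5829 genes with that minimum, 28.0% had a higher level in library 2, and their median log2 ratio was -0.28. Of the 78 members, 1 was more than 2-fold higher, where 2.30% of all genes were, and 0 were more than 2-fold lower, where 6.62% of all genes were. The count past 2-fold depended on the filters, with 4 members without shallow shared barcodes, 5 among cells under 1% globin and 8 with no limit on mt- UMIs.

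All 5 complexes took part. Complex III was at 2270 CPM in library 2 and 1622 CPM in library 1 (log2 ratio 0.48), complex IV at 6081 and 4474 CPM (0.44), complex V at 4555 and 3424 CPM (0.41) and complex I at 4946 and 3750 CPM (0.40). Complex II, which also belongs to the citric acid cycle, had the smallest difference, with 490 CPM in library 2 and 419 CPM in library 1 (0.22, 0.175 to 0.273).

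Cox5b, a nuclear subunit of complex IV (chromosome 1, 36691449 to 36693681 of GRCm38, plus strand), was the member past 2-fold, with 287 CPM in library 2 and 120 CPM in library 1 (2.40-fold, log2 ratio 1.26, 1.18 to 1.35). Atp5g1, a gene for the rotor ring of the ATP synthase (chromosome 11, 96068852 to 96075670, minus strand), came next with 144 CPM in library 2 and 71.9 CPM in library 1 (log2 interval 0.887 to 1.114), at the 2-fold limit and just short of it. Ndufv3, an accessory subunit of complex I, had 197 CPM in library 2 and 99.2 CPM in library 1 (0.99). These 3 genes encode parts of 3 different complexes.

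Cox8a, which encodes a small subunit of complex IV, had 612 CPM in library 2 and 325 CPM in library 1 (log2 ratio 0.91). Ndufa12, an accessory subunit of complex I, had a log2 ratio of 0.89. Cox7b of complex IV had 0.85. Uqcrq, a small subunit of complex III, had 397 CPM in library 2 and 223 CPM in library 1 (0.83), and Atp5j2, subunit f of the ATP synthase, 348 and 204 CPM (0.77). For 4 abundant members the ratios were 0.42 or lower. Cox5a of complex IV (chromosome 9, 57521274 to 57532426, plus strand) was at 1133 CPM in library 2 and 913 CPM in library 1 (0.31), Atp5l of complex V at 554 and 414 CPM (0.42), Uqcrh of complex III at 504 and 467 CPM (0.11), and Ndufa2 of complex I at 417 and 353 CPM (0.24).

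A few members had the opposite direction. Sdhd, a membrane anchor of complex II (chromosome 9, 50596357 to 50603812, minus strand), had 39.1 CPM in library 2 and 53.9 CPM in library 1 (log2 ratio -0.46, -0.608 to -0.313). Cox7a2l, which helps complexes III and IV assemble into larger units (chromosome 17, 83501918 to 83517330, minus strand), had 237 CPM in library 2 and 319 CPM in library 1 (-0.43, -0.488 to -0.367). Ratios were closer to 0 for Uqcrc2, a core subunit of complex III (-0.19), Ndufs4 (-0.18), Ndufs1 (-0.14) and Ndufa6 (-0.09) of complex I, and Atp5g2 of the ATP synthase rotor (-0.02). The intervals of Ndufs1 and Atp5g2 included 0. Complex II was split, as its catalytic subunit Sdha had 172 CPM in library 2 and 152 CPM in library 1 (0.18), its iron-sulfur subunit Sdhb 110 and 73.5 CPM (0.57) and its other anchor Sdhc 95.1 and 77.2 CPM (0.30).

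**Figure D2:**
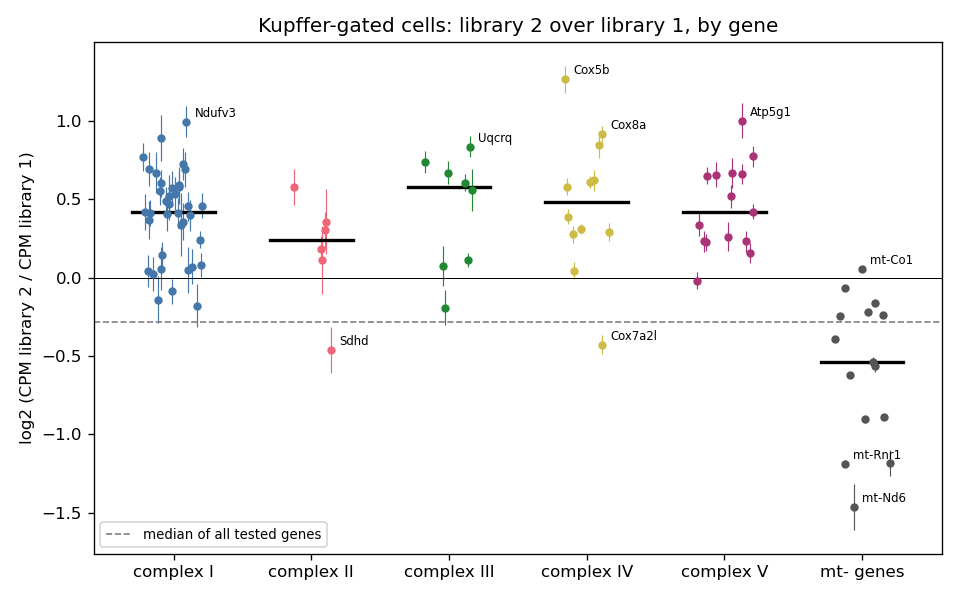
Log2 ratio of CPM in Kupffer-gated cells, library 2 over library 1 (y axis), for each member with a mean of at least 20 CPM by complex and for the mt- protein-coding and rRNA genes (x axis). Thin bars are exact 95% counting intervals, thick lines medians and the dashed line the median of all tested genes at -0.28. Most members lie above 0 and most mt- genes below it.

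Mitochondrially encoded transcripts did not share the direction of the members. The 13 mt- protein-coding genes summed to 110776 CPM in library 2 and 124147 CPM in library 1 (log2 ratio -0.16). Of them mt-Co1, the catalytic subunit of complex IV, alone was higher in library 2, at 31516 CPM against 30418 CPM in library 1 (0.05). The other complex IV genes were close to it, with mt-Co3 at -0.07 and mt-Co2 at -0.24. The ATP synthase gene mt-Atp6 had -0.16, and mt-Cytb, the core of complex III, had -0.22.

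The complex I genes were spread further. Their log2 ratios were -0.24 for mt-Nd1, -0.39 for mt-Nd4, -0.54 for mt-Nd5, -0.56 for mt-Nd4l, -0.62 for mt-Nd2 and -0.90 for mt-Nd3. Among the mt- protein-coding genes the widest gaps were in low transcripts, with mt-Nd6 at 25.9 CPM in library 2 and 71.2 CPM in library 1 (-1.46) and mt-Atp8 at 89.9 and 204 CPM (-1.18). The rRNA genes mt-Rnr1 (-1.19) and mt-Rnr2 (-0.89), which encode the RNA of the mitochondrial ribosome, summed to 4265 CPM in library 2 and 8386 CPM in library 1.

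The higher member share of library 2 was also seen among Kupffer cells with a like mt- share. Without the limit on mt- UMIs, cells with 5 to 10% mt- UMIs had 2.36% member UMIs in library 2 and 1.72% in library 1. At 10 to 15% mt- UMIs the values were 2.14% in library 2 and 1.59% in library 1, and at 15 to 20% they were 1.99% and 1.47%. At 20 to 30% they were 1.80% in library 2 and 1.41% in library 1, and at 30 to 50% they were 1.61% and 1.36%. In both libraries the share was lower in each successive range up to 50%.

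By depth the gap was less even. Kupffer cells of 2000 to 4000 UMIs had 2.10% member UMIs in library 2 and 1.38% in library 1, those of 4000 to 8000 UMIs had 1.92% and 1.49%, and those of 8000 to 16000 UMIs had 2.18% and 1.61%. Between 500 and 2000 UMIs the libraries were close, with 2.22% in library 2 (1146 cells) and 2.08% in library 1 (819 cells). Of these 819 cells 481 were shallow shared barcodes, while each deeper range of library 1 held at most 2. The parts of depth and of shared barcodes in that range were not tested apart. Without shallow shared barcodes the log2 ratio of the member share was 0.45.

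Globin RNA also differed, at 5.30% of the UMIs of Kupffer-gated cells in library 2 and 0.186% in library 1. Kupffer cells with at most 0.5% globin had 2.24% member UMIs outside globin and mt- RNA in library 2 (1008 cells) and 1.56% in library 1 (1945 cells). In the 4 ranges above it that both libraries fill, the order was the opposite. At 0.5 to 1% globin the share was 2.19% in library 2 and 2.74% in library 1 (57 cells), and at 2 to 5% it was 2.16% and 2.70% (58 cells). At 5 to 10% it was 2.22% in library 2 and 2.42% in library 1 (56 cells), and at 10 to 50% it was 2.17% and 2.44% (83 cells). In those ranges 57 of 57, 57 of 58, 55 of 56 and 79 of 83 cells of library 1 were shallow shared barcodes, with a median of 622 to 706 UMIs per range. With under 1% globin, a limit chosen after the values had been seen, the log2 ratio of the member share of all UMIs was 0.53. Erythroid markers stood at 2.60 UMIs per 10000 non-globin UMIs in Kupffer cells of library 2 and at 0.128 in library 1. The part of erythroid RNA in single member ratios was not tested beyond these values.

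**Figure D3:**
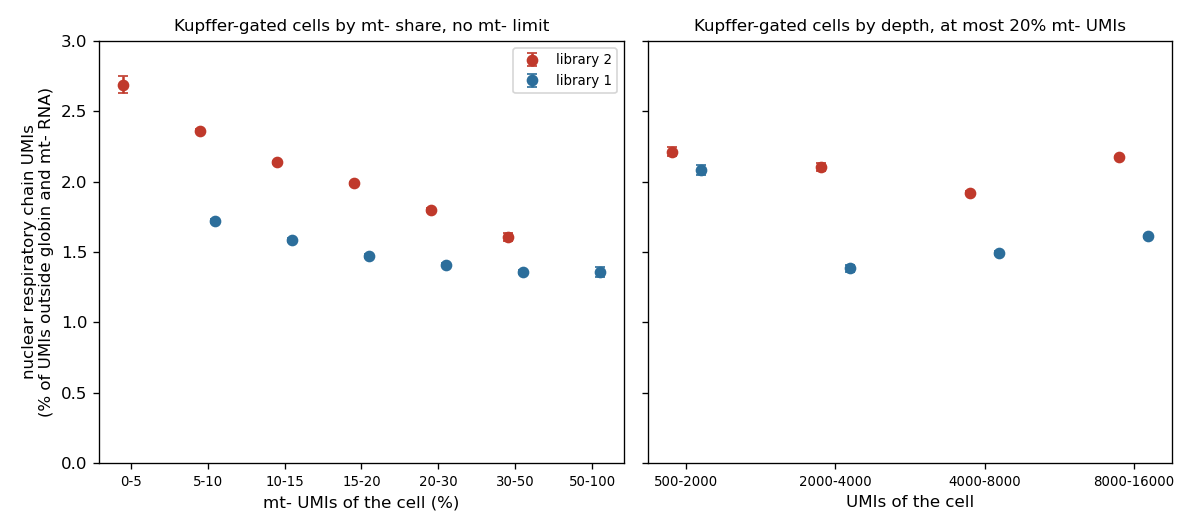
Share of member UMIs among UMIs outside globin and mt- RNA (y axis, %) in Kupffer-gated cells of library 2 and library 1, by the mt- share of the cell with no mt- limit (left) and by its UMI count (right). Points are summed over the cells of a range, and bars are exact 95% intervals. Library 2 lies above library 1 in each range that both hold, with the narrowest gap, 2.22% against 2.08%, at 500 to 2000 UMIs. In that range 481 of the 819 library 1 cells were shallow shared barcodes.

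Other mitochondrial genes were read from lists beside the members. Mobile carriers and related genes outside the symbol rule were higher in library 2 in 8 of 10 tested, with a median log2 ratio of 0.40. Among them cytochrome c (Cycs) had 140 CPM in library 2 and 84.7 CPM in library 1, and Atpif1, the inhibitor of the ATP synthase, 414 and 257 CPM. The small set of mitochondrial ribosome genes had a median of 0.29 (9 of 10 above 0), while citric acid cycle enzymes had 0.04 (7 of 12 above 0). Regulators of respiratory gene transcription lay lower in library 2 in 5 of 5, with a median of -0.47, among them Nrf1 at 19.8 CPM in library 2 and 36.9 CPM in library 1. Since 28.0% of all genes were higher in library 2, with a median of -0.28, a list of 5 genes that all lie lower is close to that background. Past 2-fold in these lists were Slc25a37, the iron importer of red cell mitochondria, at 148 CPM in library 2 and 27.1 CPM in library 1, and Bnip3, a mitophagy receptor, at 35.8 and 17.5 CPM. The cytosolic ribosomal protein genes, chosen after the values had been seen, had a median log2 ratio of 0.06 over 83 genes.

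Early erythroid cells were then set against Kupffer cells of the same library, per 1000000 UMIs outside globin and mt- RNA, a scale written nCPM from here on. Members summed to 34765 nCPM in early erythroid cells and 22045 nCPM in Kupffer cells of library 2 (1.58-fold, log2 ratio 0.66, 0.647 to 0.667). Of 81 tested members 73 were higher, with a median log2 ratio of 0.71, against 53.4% and 0.17 for all genes. Of the 81, 21 were more than 2-fold higher, where 29.8% of all genes were, and 1 was more than 2-fold lower, where 30.1% of all genes were. Cytosolic ribosomal protein genes had a median log2 ratio of 1.34.

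The complexes differed in this contrast. Complex III was at 4910 nCPM in early erythroid cells and 2728 nCPM in Kupffer cells (log2 ratio 0.85), complex V at 9642 and 5475 (0.82), complex I at 9475 and 5944 (0.67) and complex IV at 10173 and 7309 (0.48). Complex II was at 565 nCPM in early erythroid cells and 589 in Kupffer cells (-0.06, -0.137 to 0.017). Within it Sdhd was higher in early erythroid cells, at 72.8 nCPM against 47.0 in Kupffer cells (0.63). Sdha had 208 and 207 nCPM (0.00, -0.124 to 0.131), while Sdhc (-0.43) and Sdhb (-0.54, 90.2 against 132 nCPM) were lower. The mt- genes were lower in early erythroid cells, at 86254 nCPM against 138279 in Kupffer cells (-0.68).

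The widest single difference was in Cox6b2, a copy of the COX6B gene best known from testis (chromosome 7, 4751792 to 4753094, minus strand). It had 190 nCPM in early erythroid cells (512 UMIs) and 6.95 in Kupffer cells (168 UMIs), 27.4-fold more (log2 ratio 4.77, 4.52 to 5.03). The assembly factors Ndufaf4 (chromosome 4, 24898083 to 24905001, plus strand) and Ndufaf2 followed at 84.3 against 20.4 nCPM (2.04) and at 52.7 against 13.4 (1.98). Both proteins help to build complex I and are not part of the finished enzyme.

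Next came Ndufv1, the NADH-binding core subunit of complex I, at 130 nCPM in early erythroid cells and 38.3 in Kupffer cells (log2 ratio 1.76). Ndufb9, an accessory subunit of complex I, had 699 and 208 nCPM (1.75), and Atp5g1 had 520 and 173 (1.59). Atp5b, the catalytic subunit of the ATP synthase, had 840 nCPM in early erythroid cells and 300 in Kupffer cells (1.48).

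Cox5a was the exception past 2-fold. It was the most abundant complex IV member in Kupffer cells, at 1361 nCPM, against 595 in early erythroid cells (log2 ratio -1.20, -1.27 to -1.12). Cox7a2l had 169 nCPM in early erythroid cells and 285 in Kupffer cells (-0.75). Ndufv3 (-0.48) and Atp5g2 (-0.41) were lower as well. Other abundant members were Uqcr11 at 1295 nCPM in early erythroid cells and 650 in Kupffer cells (0.99), Atp5e at 1043 and 600 (0.80), Ndufa2 at 639 and 502 (0.35) and Cox4i1 at 1327 and 1227 (0.11).

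Cox5a also stood apart in endothelial cells. It had 430 nCPM in endothelial and 1361 in Kupffer cells of library 2 (log2 ratio -1.66), and 249 in endothelial and 1055 in Kupffer cells of library 1 (-2.08). Sdhb was lower in both libraries too, at -1.46 in library 2 and -1.26 in library 1. In library 2, 0 of 79 tested members were more than 2-fold higher in endothelial cells (22.6% of all genes were) and 3 were more than 2-fold lower (11.9%), Cox5a, Sdhb and Sdhd (-1.12, from 10 endothelial UMIs). In library 1, 2 were more than 2-fold higher (21.0%), Ndufaf2 (32.7 against 13.7 nCPM) and Ndufb11 (1.11), and 2 were more than 2-fold lower (13.2%), Cox5a and Sdhb. Ndufb11, a complex I accessory subunit whose gene lies on the X chromosome, had 0.74 in library 2. The erythroid, endothelial and hepatocyte contrasts of library 2 share the same Kupffer cells.

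Hepatocyte-gated cells showed another pattern over Kupffer cells of library 2. There 75 of 78 tested members were higher in hepatocytes, with a median log2 ratio of 1.01, against 34.0% of all genes and a median of -0.53. Of the 78, 41 were more than 2-fold higher, where 18.6% of all genes were, and 0 were more than 2-fold lower, where 36.4% of all genes were. Ndufa4, which is counted with complex IV (chromosome 6, 11900292 to 11907497, minus strand), had 2553 nCPM in hepatocytes and 459 in Kupffer cells (2.48). Atp5g1 had 745 and 173 nCPM (2.11), and Cox7a2 of complex IV had 1495 and 406 (1.88). Cox7a2l was lower, at 177 nCPM in hepatocytes and 285 in Kupffer cells (-0.68). The bead enrichment was not aimed at hepatocytes, and these 61 cells had a median of 1228 UMIs.

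Across the erythroid stages the members made up a smaller share as globin filled the cell. Per 1000000 of all UMIs they stood at 28946 CPM in early and 2926 CPM in globin-dominated cells, a log2 ratio of -3.31 for globin-dominated over early cells. Outside globin and mt- RNA the same ratio was -0.58 (-0.641 to -0.525), and for hemoglobinizing over early cells it was -0.24. The mt- genes had the opposite direction on that scale. Protein-coding mt- transcripts stood at 83430 nCPM in early, 132655 in hemoglobinizing and 424220 in globin-dominated cells, and the rRNA genes at 2822, 10566 and 32070. In CPM of all UMIs the mt- protein-coding genes had a log2 ratio of -0.38 and the rRNA genes of 0.78 for globin-dominated over early cells. Both ratios are set against the same early cells. The limit of 20% mt- UMIs counts globin in the total. It removed early and hemoglobinizing cells but left all 126 globin-dominated cells. With no limit there were 268 early and 472 hemoglobinizing cells. The mt- share of non-globin UMIs was then 10.2% in early, 15.3% in hemoglobinizing and 31.3% in globin-dominated cells. With the limit it was 7.94%, 12.5% and 31.3% in the same order.

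Complex IV had the smallest differences between stages. It stood at 10173 nCPM in early, 9954 in hemoglobinizing (log2 ratio -0.03 to early) and 8849 in globin-dominated cells (-0.20). Complex V stood at 9642, 8228 (-0.23) and 6448 (-0.58) in the same order, complex III at 4910, 3656 (-0.43) and 2743 (-0.84), and complex I at 9475, 7329 (-0.37) and 4820 (-0.98). Complex II stood at 565, 334 (-0.76) and 352 (-0.68, -1.192 to -0.211), the last from 37 UMIs.

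**Figure D4:**
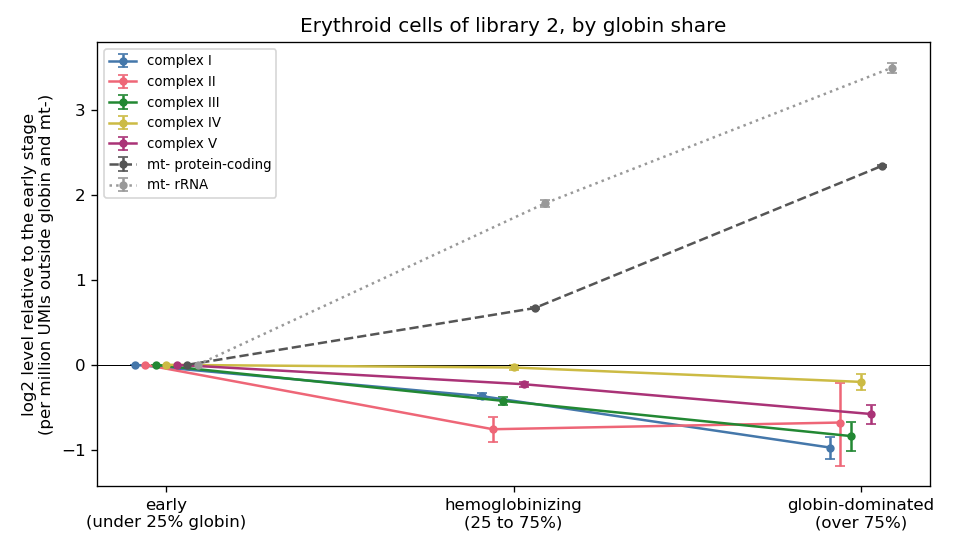
Log2 level relative to the early stage (y axis, nCPM) of each complex and of the mt- protein-coding and rRNA genes in erythroid cells of library 2, by globin share (x axis). Bars are exact 95% counting intervals. The 5 nuclear sums lie at or below 0, complex IV at -0.20 and complex I at -0.98 in globin-dominated cells, while mt- protein-coding genes reach 2.35 and mt- rRNA 3.51.

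In hemoglobinizing cells 0 of 80 tested members were more than 2-fold higher than in early cells, where 16.0% of all genes were, and 10 were more than 2-fold lower, where 18.0% of all genes were. The median log2 ratio was -0.39 for members and -0.15 for all genes. The lowest were Ndufaf4 (-2.25, 17.7 against 84.3 nCPM in early cells), Atp5g1 (-1.69, 161 against 520), Ndufb5 of complex I (-1.65), Sdhd (-1.64), Atp5g2 (-1.35) and the complex I assembly factor Ndufaf8 (-1.34). Highest was Cox6b2, at 349 nCPM in hemoglobinizing and 190 in early cells (0.87). Ndufa1 (0.55), Ndufb11 (0.49) and Ndufa11 (0.29) of complex I, Cox6a1 of complex IV (0.44) and Atp5h of the ATP synthase stalk (0.24) were next.

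In globin-dominated cells 1 of 80 tested members was more than 2-fold higher than in early cells (16.1% of all genes were), and 38 were more than 2-fold lower (44.0%). The median log2 ratio was -0.96 for members and -0.79 for all genes. The higher member was Cox6b2, at 838 nCPM in globin-dominated cells (88 UMIs) and 190 in early cells (log2 ratio 2.14, 1.80 to 2.47). Cox5a came next at 914 and 595 nCPM (0.62), then Atp5l at 1267 and 850 (0.57). Cox5a was also higher in Kupffer than in early erythroid cells. Kupffer markers stood at 95.2 UMIs per 10000 non-globin UMIs in globin-dominated cells and at 12.7 in early cells. Their part in the Cox5a level was not tested. The Atp5l count is uncertain, since its 3' end shares sequence with pseudogenes. The intervals of Ndufa1 (0.51), Cox7a2l (0.37) and Ndufa3 (0.31) included 0. The lowest rested on few UMIs, with 6 for Atp5g1 (-3.19), 4 for Ndufb4 of complex I (-2.80), 3 for Uqcrc2 (-2.78) and 8 for Atp5d of the ATP synthase (-2.64).

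Of the 38 lower members, 23 belong to complex I, out of 39 tested in that complex. Complex IV had 3 of 13, complex V 6 of 15, complex III 4 of 8 and complex II 2 of 5. Other mitochondrial lists stood beside them. Of 11 tested mitochondrial ribosome genes 10 were more than 2-fold lower in globin-dominated than in early cells, and of 12 citric acid cycle enzymes 6. Over all tested genes 44.0% were more than 2-fold lower. The counts of complexes II, III and V and of the citric acid cycle enzymes are close to that share. The mitophagy receptor Bnip3l was higher, at 3200 nCPM against 283 in early cells, as were the autophagy genes Map1lc3b (1600 against 182) and Gabarapl2 (1905 against 105). Slc25a37 had 9401 nCPM in globin-dominated and 1262 in early cells.

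Kupffer markers moved with the stages, at 12.7 UMIs per 10000 non-globin UMIs in early, 40.7 in hemoglobinizing and 95.2 in globin-dominated cells, against 244 in Kupffer cells. Their part in these levels was not tested over all stages. Among cells under 30 such UMIs, a limit set after the values had been seen, 161 early cells had 3.54% member UMIs outside globin and mt- RNA and 144 hemoglobinizing cells 3.35%, with 43.8 and 32.9 member UMIs per 100 mt- UMIs. Only 2 globin-dominated cells met the limit. In finer steps of globin share the member share was 3.34% under 5% globin (51 cells), 3.52% at 5 to 15%, 3.63% at 15 to 25%, 3.42% at 25 to 40%, 2.83% at 40 to 55% and 2.43% at 55 to 75% (179 cells). It was thus highest in the third of these ranges, while complex II was lower in each successive range, from 654 nCPM in the first to 263 in the last. Complex IV stood at 9283 nCPM in the first range, 11337 in the third and 8495 in the last. In cells with few Kupffer markers its direction was the opposite of that over all cells, at 11206 nCPM in hemoglobinizing and 10342 in early cells.

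Some subunits have several gene copies, whose shares within a set do not depend on the class total. Cox6b2 made up 20.5% of COX6B UMIs in early erythroid cells (19.0 to 22.2), 35.5% in hemoglobinizing cells (33.0 to 38.1) and 61.5% in globin-dominated cells (53.0 to 69.5, 88 of 143 UMIs). In hemoglobinizing cells with few Kupffer markers it was 35.9%. Kupffer cells had 1.37% in library 2 and 0.881% in library 1, and the share in library 2 was 0.613% among those with under 1% globin. Monocytes had 2.69% in library 2 and 3.10% in library 1, from 6 and 8 UMIs. Endothelial cells had 0 of 141 COX6B UMIs in library 2 and 0 of 248 in library 1, with upper limits of 2.58% and 1.48%. Cox6b2 and Cox6b1 shared no stretch of 90 bases near their 3' ends with another gene, and Fam71e2, which ends 132 bases upstream of Cox6b2 on the same strand, had 0 UMIs.

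The c subunit of the ATP synthase rotor has 3 genes that encode the same mature protein. Atp5g1 made up 38.9% of their UMIs in early erythroid cells, 26.8% in hemoglobinizing cells and 10.9% in globin-dominated cells (4.11 to 22.2, 6 of 55 UMIs). Hepatocytes of library 2 had 38.0%. Kupffer cells had 18.0% in library 2 (17.5 to 18.5) and 10.2% in library 1 (9.53 to 10.93). Atp5g2 led in Kupffer cells, with 45.6% in library 2 and 52.6% in library 1, while Atp5g3 led in globin-dominated cells with 52.7%. Endothelial cells had 13.5% Atp5g1 in library 2 and 12.9% in library 1.

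The COX7A set also held Cox7a2l, which matches by symbol and is not counted as a subunit here, so its shares are not those of a subunit copy. Within this set Cox7a2l made up 40.7% of UMIs in Kupffer cells of library 2 and 58.9% in library 1. Its share was 15.7% in early erythroid cells and 10.6% in hepatocytes of library 2. Endothelial cells had 46.7% in library 2 and 44.7% in library 1, and monocytes 50.7% and 58.2%. Cox7a2, the common subunit gene, held 58.1% in Kupffer cells of library 2 and 40.7% in library 1.

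**Figure D5:**
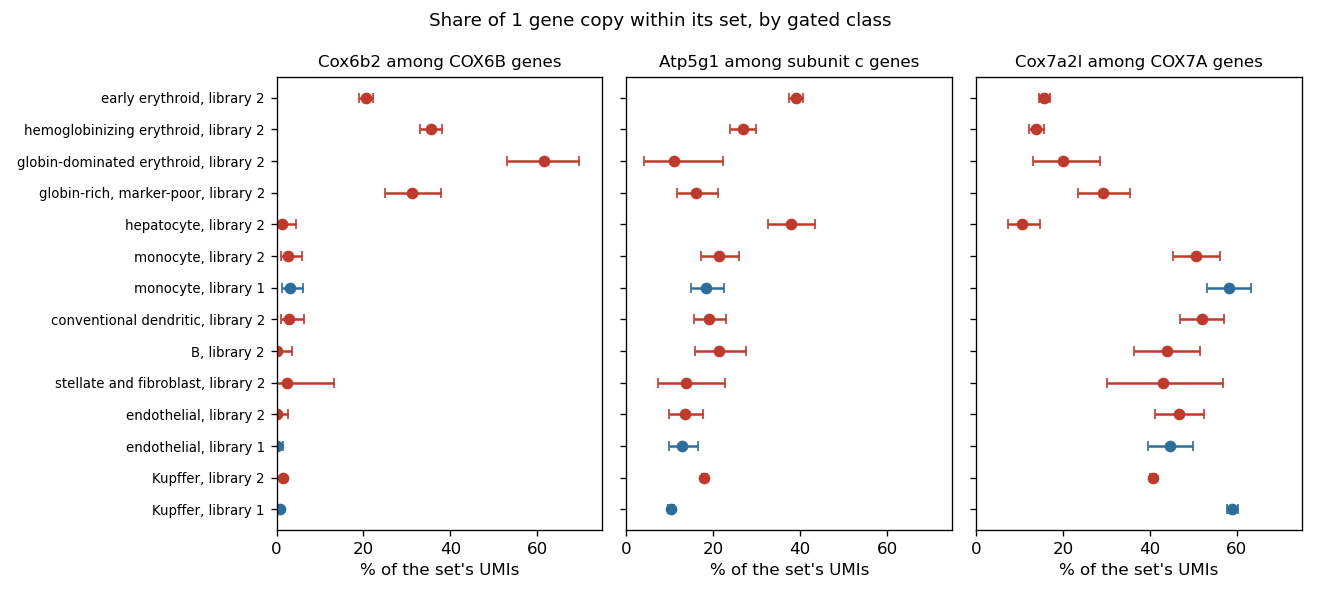
Share of UMIs within a set of gene copies (x axis, %) for Cox6b2, Atp5g1 and Cox7a2l in each gated class (y axis), with red points for library 2 and blue points for library 1. Bars are exact Clopper-Pearson 95% intervals. Cox7a2l matches the COX7A set by symbol and is not counted as a subunit. Cox6b2 stands at 61.5% in globin-dominated cells and at 1.37% in Kupffer cells of library 2.

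Copies known from muscle and other tissues had few UMIs in Kupffer cells. There Cox7a1, the muscle copy of COX7A, had 200 UMIs in library 2 and 19 in library 1 (6.89 and 1.82 CPM, 3.78-fold, 2.36 to 6.41). Cox4i2, an oxygen-responsive copy of COX4, had 37 UMIs in library 2 and 1 in library 1, a ratio of 13.3 with an interval of 2.24 to 539. With no limit on mt- UMIs it had 44 UMIs in library 2 and 5 in library 1, a ratio of 5.51 (2.19 to 17.8), and at a limit of 10% it had 12 and 0 UMIs. In stellate cells and fibroblasts of library 2 it held 6 of 110 COX4 UMIs (5.45%), and Ndufa4l2 held 7 of 46 UMIs of its set (15.2%). Cox4i1, Cox6a1, Cox7b, Cox8a and Ndufa4 held at least 84.8% of the UMIs of their sets in each class of at least 50 cells.

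Cox6a2, the heart and muscle copy of COX6A (chromosome 7, 128205435 to 128206387, minus strand), had 61 UMIs in Kupffer cells of library 2 and 0 in library 1. With the 0 set to a floor of 3 UMIs the ratio was 7.30, and the exact lower limit was 5.76. With no limit on mt- UMIs the ratio was 13.6 (lower limit 10.7), and at a limit of 10% it was 1.98 (lower limit 1.51). Cox6a2 overlaps the integrin gene Itgad on the opposite strand, which also had 61 and 0 UMIs there, and 1 cell held both. Whether counting used strand is not given in the sources used here, so reads of the pair may not be told apart. In 5 plasmacytoid dendritic cells of library 2 Cox6a2 had 25 UMIs and Itgad 0.

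Sequence shared with another gene, on either strand, could shift some counts. Of the 96 members, 77 shared no stretch of 90 bases within the last 500 bases of their transcripts with another gene. Atp5l shared 68.9% of these stretches with processed pseudogenes, so its count is uncertain. Uqcrc2 shared 100% with Pdzd9, which overlaps it on the opposite strand and had 13 UMIs over all barcodes, against 6683 for Uqcrc2. The effect of this overlap on the Uqcrc2 count was not tested. The figures were 22.9% for Cox5a, shared with Gm26631 that overlaps it on the opposite strand, and 9.49% for Cox5b. Atp5g1 and Cox7a2l had none.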

How the data were processed

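The authors deposited a matrix of raw counts, as UMIs per gene and cell barcode, which the submitters' processing notes tie to Cell Ranger 3.0.1, R 3.6.1 and GRCm38.p5. Libraries were made with a 10x 3' v3 kit, per the labels. Library 2 held 56947765 UMIs and library 1 held 33099802. Barcodes with at least 200 genes and at most 20% mt- UMIs were kept and assigned to a class by distinct markers and by marker UMIs per 10000. A globin share of at least 50% also counted as passing the erythroid gate, whatever the markers. Barcodes that passed several gates (236 in library 2 and 91 in library 1) or none (930 and 580) were not compared. Doublets were not removed by a caller.

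UMIs were summed per class and library. Ratios have exact conditional 95% intervals, counts exact Poisson intervals and shares exact Clopper-Pearson intervals. With 1 mouse per genotype and no map from library to genotype, no p-value was computed. A gene was compared if it had a mean of 20 CPM and 30 UMIs over both sides, and a 2-fold difference was counted. The members and lists were chosen with earlier results of these data known, and gate limits were set after marker distributions had been seen.

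Genes were named by a rule: the copy sets, the SDH and mt- protein-coding genes, the most abundant member of each complex, and up to 6 highest and 6 lowest ratios per comparison. Only part of these are given in the text, and 1 item is not reported here. Alternatives varied the mt- limit, the gene minimum, shallow shared barcodes, the gates, the denominator, the member list and the stage limits. The steps were tested on simulated data. Python 3.11.15 was used with numpy 2.4.6, pandas 2.3.3, scipy 1.17.1 and matplotlib 3.10.9.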

Additional observations from a re-analysis of the deposited data

How the results depend on the processing

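None of the alternatives tried reversed the direction of the 4 member ratios followed here. The Kupffer member share (log2 ratio 0.42, library 2 over library 1) was 0.38 at a limit of 10% mt- UMIs, 0.54 at 40% and 0.60 with no limit. It was 0.45 with at least 500 genes per cell, 0.45 without shallow shared barcodes and 0.46 with a stricter gate. Without mt- genes in the denominator it was 0.39, without globin 0.50 and without both 0.48. Over subunits alone it was 0.44, as a median over cells 0.34 and, in cells under 1% globin, 0.53. The ratio of member to mt- UMIs in Kupffer cells (log2 ratio 0.63) depended more on the mt- limit, with 0.45 at 10%, 1.07 at 40% and 1.34 with no limit. It was 0.66 with at least 500 genes, 0.67 without shallow shared barcodes, 0.69 with a stricter gate, 0.59 over mt- protein-coding genes, 0.65 over subunits and 0.78 under 1% globin.

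The count of members past 2-fold between libraries in Kupffer cells (1) was 6 at a limit of 40% mt- UMIs, 8 with no limit, 4 with at least 500 genes, 4 without shallow shared barcodes, 2 with a stricter gate, 3 without globin, 3 without globin and mt- genes, 4 with no CPM minimum and 5 under 1% globin. The cause was not tested. Early erythroid over Kupffer cells (0.66) was 0.55 at 10% mt- UMIs, 0.70 at 40%, 0.68 with no limit, 0.54 with a stricter gate, 0.59 without mt- genes, 0.72 without globin and 0.56 against Kupffer cells under 1% globin. Globin-dominated over early cells (-3.31) was -3.25 with no mt- limit, -3.22 with a stricter gate, -1.01 without globin and -0.58 without globin and mt- genes. The stricter gate left 134 of 208 early cells but all 126 globin-dominated cells, which enter on globin share, so it tried the early side alone. With stage limits of 15% and 60% the ratio was -2.68, and with 40% and 85% it was -3.68. With Kupffer markers under 30 per 10000 it rested on 2 globin-dominated cells.

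No paired analysis was possible because each genotype had 1 mouse and no label ties a library to it. Differences between libraries cannot be told apart from differences in handling or depth, and cells are not replicates. Members near 30 UMIs have wide intervals, and globin-dominated cells limit the stage values most.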
